A study of Mus musculus with 13 samples.

Results

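The genes described here were 39 genes of fatty acid oxidation and of the response to peroxisome proliferator-activated receptors (PPARs), among 24054 genes with read counts in 13 RNA-seq libraries from mouse small intestine. They were listed by name and role rather than by a threshold on measured values, with earlier results of these data known, and all 39 were in the count tables. By role they comprised 4 receptors and coactivators, 4 acyl-CoA synthetases and thioesterases, 4 genes of the carnitine shuttle, 4 acyl-CoA dehydrogenases and 4 genes of the later mitochondrial steps. A further 4 were auxiliary enzymes for unsaturated fatty acids, 3 belonged to the electron transfer flavoprotein system, 8 were peroxisomal enzymes and peroxins, and 4 were other PPAR targets. Levels are in CPM, read counts scaled to library size, and "called" means a Benjamini-Hochberg adjusted p under 0.05 over all genes of an edgeR quasi-likelihood fit. Fold changes are log2 values ± standard error.

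Fatty acids are activated to acyl-CoA, carried into mitochondria by the carnitine shuttle and shortened step by step by dehydrogenation, hydration, a further dehydrogenation and thiolysis, and the electrons pass through the electron transfer flavoprotein to the respiratory chain. Very long and branched chains are first shortened in peroxisomes. PPARs are nuclear receptors that bind fatty acids, pair with retinoid X receptors and activate many of these enzyme genes. In the small intestine this programme is strong in absorptive enterocytes, which handle dietary fat, and it is also used by the stem cells at the crypt base.

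The study examined loss of Apc, the gene whose product keeps Wnt signalling in check, and asked how its effects depend on the cell type and setting in which it is lost. All mice were adults that had received 2 doses of 1 mg tamoxifen. Sec-Cre organoids (Atoh1CreERT2;Apcfl/fl;Rosa26tdTomato, Cre active in the secretory lineage), ISC-Cre organoids (Lgr5eGFP-CreERT2;Apcfl/fl;Rosa26tdTomato, Cre active in Lgr5+ cells) and organoids of genotype WT were labelled 10 days post induction (dpi), with 2 libraries each. Flow-sorted intestinal stem cells (ISCs) came from the ileum of Sec-Cre mice (Atoh1CreERT2;Apcfl/fl;Lgr5DTR-GFP;Rosa26tdTomato, 21 dpi, 2 libraries) and from mice with floxed Apc but no Cre (Apcfl/fl;Lgr5DTR-GFP;Rosa26tdTomato, 21 dpi, 2 libraries), called WT ileal ISCs here as in their titles. The last group held ISCs from the duodenum of ISC-Cre mice (Lgr5eGFP-CreERT2;Apcfl/fl;Rosa26tdTomato, 14 dpi, 3 libraries), for which no WT duodenal group was analysed here. The Cre driver, gut region, time after tamoxifen and library type of the duodenal group, and possibly its dissociation enzyme (TrypLE is given for samples named Lgr5_ApcKO and collagenase for the others), cannot be told apart from one another. The labels differ on other points: the extraction text names the duodenum for every sample, and the organoid time is given both as the day of plating and as the days in culture. The Cre drivers act only in part of the epithelium, and a label does not show that every cell of a library had lost Apc.

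Gene counts ranged from 11524335 to 45516228 per library. The duodenal libraries had 98.5 to 98.9% of strand-assigned counts on the second strand against 48.4 to 51.1% in the others, although a non-directional kit is labelled for all. The 2 Sec-Cre ileal ISC libraries stood apart from each other and from the rest. Unmapped reads made up 57 and 35.8% of them against 13.9 and 5.01% in the WT ileal ISCs, and 9 Paneth cell markers took 24.9% of gene counts in replicate 1 and 0.844% in replicate 2. Axin2, a direct Wnt target, stood at 822 and 789 CPM in Sec-Cre, 782 and 817 in ISC-Cre and 222 and 393 in WT organoids and was called higher in both Apc-null organoid groups. It was 79.0 and 37.9 CPM in the ISC libraries labelled Sec-Cre Apc-null, below the 329.9 and 285 CPM of the WT ileal ISCs. Its log2 fold change there was -2.40 ± 0.41 (adjusted p 0.00785), a call that was lost without either WT library. Gene-level Apc counts (107 and 48.2 CPM in those libraries, 114 and 124 in WT) do not separate the floxed exon and check nothing. The Sec-Cre ileal group is therefore named below as the libraries labelled Sec-Cre, or Sec-Cre ileal ISCs where levels or counts are listed. Both names, and directions drawn from the group, rest on that label.

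The upstream sequences of a few members are shown first, to place the genes whose levels moved most and the members with a core receptor hexamer near their start. Sequences are from RefSeq promoter windows on GRCm38.p6, 5′ to 3′ on the gene's strand. The 250 bases before the start of Ppara, the receptor gene with the largest decrease in organoids, and of Pdk4, the member called higher in organoids and in both ISC comparisons with WT, follow in lower case.
Ppara (chr15:85735526-85735775, plus strand): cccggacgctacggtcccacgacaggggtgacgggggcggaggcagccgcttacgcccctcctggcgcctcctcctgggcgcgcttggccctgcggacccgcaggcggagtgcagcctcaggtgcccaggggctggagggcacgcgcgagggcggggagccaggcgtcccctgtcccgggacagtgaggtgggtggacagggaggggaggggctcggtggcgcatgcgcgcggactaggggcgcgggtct
Pdk4 (chr6:5496279-5496528, minus strand): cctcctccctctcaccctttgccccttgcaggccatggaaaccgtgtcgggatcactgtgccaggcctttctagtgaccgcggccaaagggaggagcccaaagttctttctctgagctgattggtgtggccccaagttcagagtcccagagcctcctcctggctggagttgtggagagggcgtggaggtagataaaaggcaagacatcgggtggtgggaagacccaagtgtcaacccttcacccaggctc
The Ppara stretch had 76.4% G and C bases and 27 CpG dinucleotides, and the Pdk4 stretch had 58.8% and 6. Windows of 300 bases (250 before and 50 after the start) were searched for 33 of the 39 members, 36 windows in all. No window was searched for Acaa2, Hsd17b4, Cyp4a10, Pex19, Angptl4 and Decr1. The member shares below leave these genes out, and nothing is said here about their upstream sequence. The direct repeat that PPARs bind, the hexamer AGGTCA on both sides of any single base, was searched on both strands. It was in 0 of the 36 windows and in 0.0396% of 32851 windows genome-wide. The core hexamer alone, which lies inside that repeat, was in 8 windows of 7 members, 22.2% of member windows against 16.3% of all windows. The Wnt-factor motif ATCAAAG was in 1 member window, that of Acot1 (2.78% against 3.73% of all). These motifs were picked after expression values had been seen, a match is only a match of letters, and an absent match says nothing about binding elsewhere.

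Stretches around the hexamer are shown for members described below, with the hexamer (or its reverse complement TGACCT) in capitals.
Cat (chr2:103485325-103485384, minus strand): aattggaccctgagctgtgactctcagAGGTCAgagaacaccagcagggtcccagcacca
Acadvl (chr11:70015483-70015542, minus strand): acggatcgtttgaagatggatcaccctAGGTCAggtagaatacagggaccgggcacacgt
Cpt1a (chr19:3323180-3323239, plus strand): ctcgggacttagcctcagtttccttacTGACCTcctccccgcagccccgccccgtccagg
Scp2 (chr4:108118624-108118683, minus strand): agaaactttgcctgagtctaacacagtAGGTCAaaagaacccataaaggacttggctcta
Plin2 (chr4:86670245-86670304, minus strand): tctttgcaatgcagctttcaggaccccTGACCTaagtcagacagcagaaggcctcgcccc
Pparg (chr6:115362313-115362348, plus strand): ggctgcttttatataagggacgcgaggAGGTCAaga
The 7 members with a hexamer were Cat, Acadm, Plin2, Scp2, Pparg, Acadvl and Cpt1a. In organoids 5 of them (Cat, Acadm, Pparg, Acadvl, Cpt1a) were called lower in both Apc-null groups, Plin2 was called lower in the Sec-Cre group, and Scp2 was called in neither. Of all 38 members tested 24 were lower in both, a share of 63.2%, so the count for the members with a hexamer is no result about the hexamer.

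In WT tissue the mitochondrial members were the most abundant when levels were divided by exon length. In WT organoids the mean level was 108 CPM per kb for Acaa2, the mitochondrial thiolase, then 92.0 for Etfa, 87.0 for Hadh, 72.8 for catalase and 70.3 for Acsl5. The 2 Acaa2 libraries (99.95 to 116 CPM per kb) lay above those of Etfa, Hadh, catalase and Acsl5. Both Etfa libraries (85.9 to 98.1) lay above those of catalase (63.8 to 81.8) and Acsl5 (57.3 to 83.3) but overlapped those of Hadh (80.0 to 94.0). The order of these genes was otherwise not resolved. At the other end stood Angptl4 at 1.47, Pdk4 at 0.0933 and Cyp4a10 with 0 counts. In WT ileal ISCs the highest means were 84.5 CPM per kb for Etfa, 79.7 for Acaa2, 66.9 for Etfb and 61.8 for Hadh. Pdk4 (0.738), Angptl4 (0.630) and Acaa1b (0.111) were again near the bottom.

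**Figure D1:**
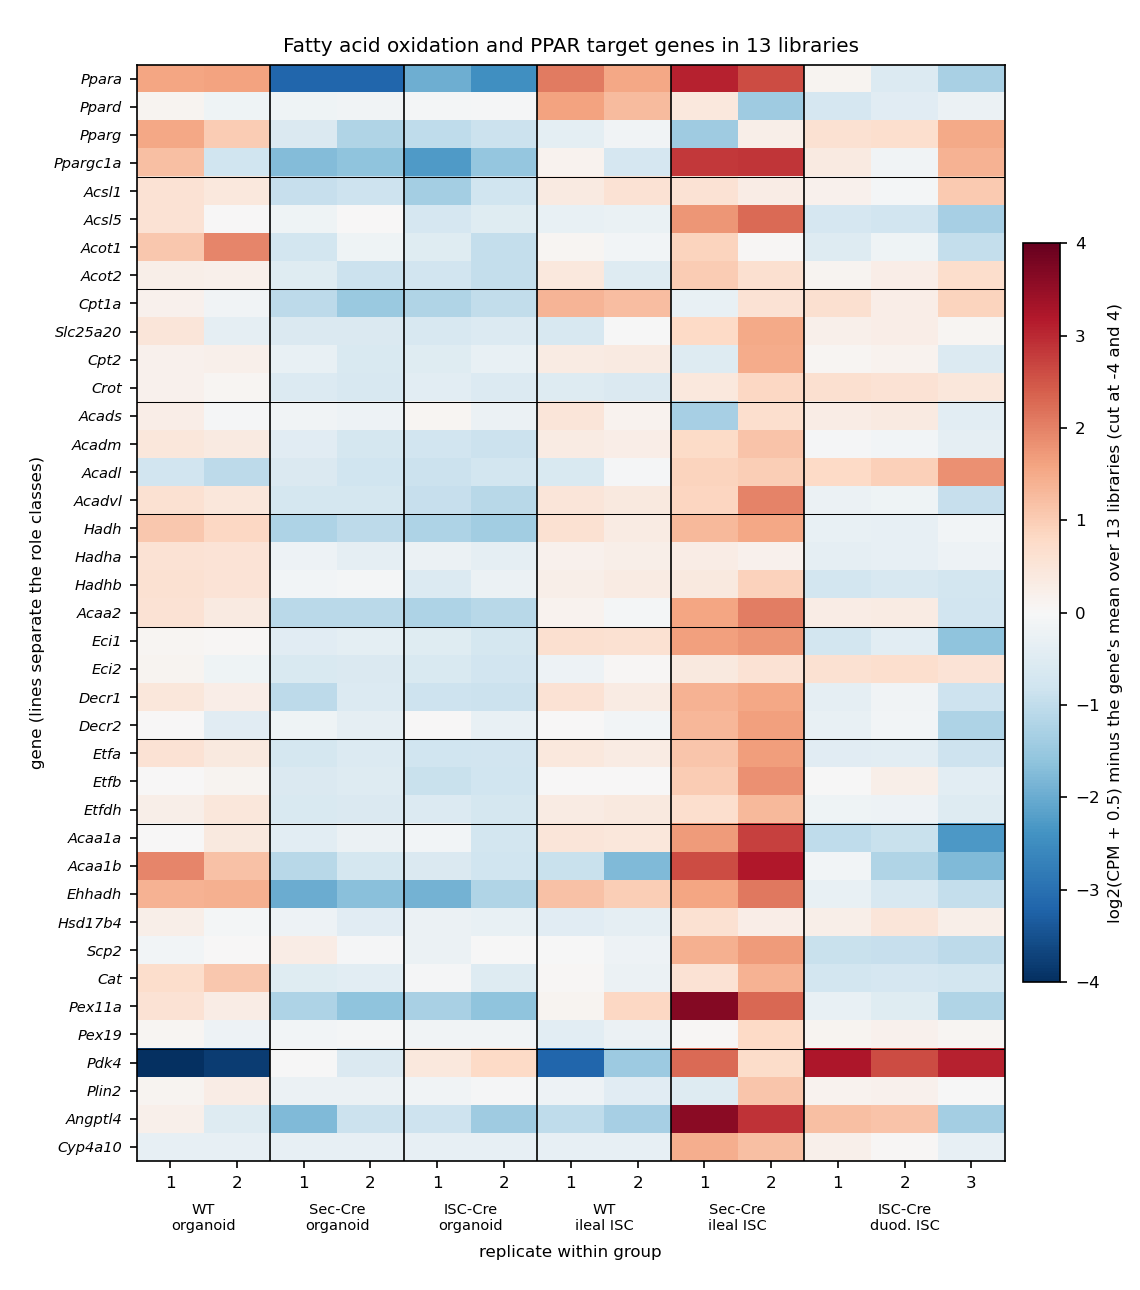
Heat map of the 39 genes (rows, by role) in the 13 libraries (columns, by group), coloured by log2(CPM + 0.5) minus the gene's mean over the libraries, with colours limited at -4 and 4. Most rows are low in the 4 Apc-null organoid libraries and high in the 2 libraries labelled Sec-Cre ileal ISC, and Pdk4 is the opposite in organoids.

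Organoids without Apc had lower levels of most of the programme. Of 38 members tested, 25 were called lower and 1 higher in Sec-Cre against WT organoids, where 16.3% of all 14208 tested genes were called lower and 16.7% higher. In ISC-Cre against WT organoids 26 were called lower and 1 higher, against 18.5% and 19.3% of all genes. The members' median log2 fold change was -0.95 in Sec-Cre and -0.996 in ISC-Cre organoids, and the medians over all genes were 0.05 and 0.03. Summed over the 39 genes, the members reached 2139.6 and 2089.6 CPM in Sec-Cre, 1975 and 1953 in ISC-Cre and 3948 and 3586 in WT organoids, so the 4 Apc-null libraries lay together and below both WT libraries. Both comparisons use the same 2 WT libraries and are not independent. By name, 24 members were called lower in both, Plin2 was called in Sec-Cre, and Acsl5 and Acot2 were called in ISC-Cre organoids.

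Cell type markers moved with these values. The 16 enterocyte markers were all called lower in both Apc-null organoid groups, and summed to 437 and 540.2 CPM in Sec-Cre, 395 and 414 in ISC-Cre and 7694 and 5920.2 in WT organoids. In each Apc-null organoid library 1 to 3 of the 16 had no count. Secretory markers were lower as well. The 7 goblet markers summed to 477 and 521 CPM in Sec-Cre, 718 and 496 in ISC-Cre and 4567 and 4894 in WT organoids, with 6 called lower in each comparison. The 9 enteroendocrine markers summed to 13.3 and 27.1 CPM in Sec-Cre, 60.9 and 14.8 in ISC-Cre and 905 and 792 in WT organoids, with 9 called lower in Sec-Cre and 8 in ISC-Cre organoids. Of 8 stromal and endothelial markers 5 were tested and 3 were called higher in each comparison, with sums of 19.5 and 9.94 CPM in Sec-Cre, 24.9 and 15.3 in ISC-Cre and 0.141 and 0.844 in WT organoids. In these bulk libraries fewer cells of a type and less RNA per cell cannot be told apart, and the part of these cell types in the members' decrease was not tested. Of the 4 adipocyte markers, 1 (Cidec) passed the filter on low counts. With all 13 libraries in 1 fit, 19 of the 26 Sec-Cre calls were kept (lost: Cpt2, Hadhb, Eci1, Eci2, Etfb, Acaa1b and Plin2). In ISC-Cre organoids 22 of the 27 calls were kept in that fit (lost: Acot2, Cpt2, Crot, Eci1 and Acaa1b). Leaving out a library ended some calls: in Sec-Cre organoids 19 of the 26 calls were kept without Sec-Cre replicate 2 (lost: Ppargc1a, Cpt2, Crot, Eci1, Eci2, Etfb and Plin2), 20 without Sec-Cre replicate 1, 23 without WT replicate 1 and 25 without WT replicate 2. In ISC-Cre organoids 20 of the 27 calls were kept without ISC-Cre replicate 2 (lost: Ppargc1a, Acot2, Cpt2, Crot, Eci1, Eci2 and Acaa1b), 23 without ISC-Cre replicate 1, 25 without WT replicate 1 and 27 without WT replicate 2.

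**Figure D2:**
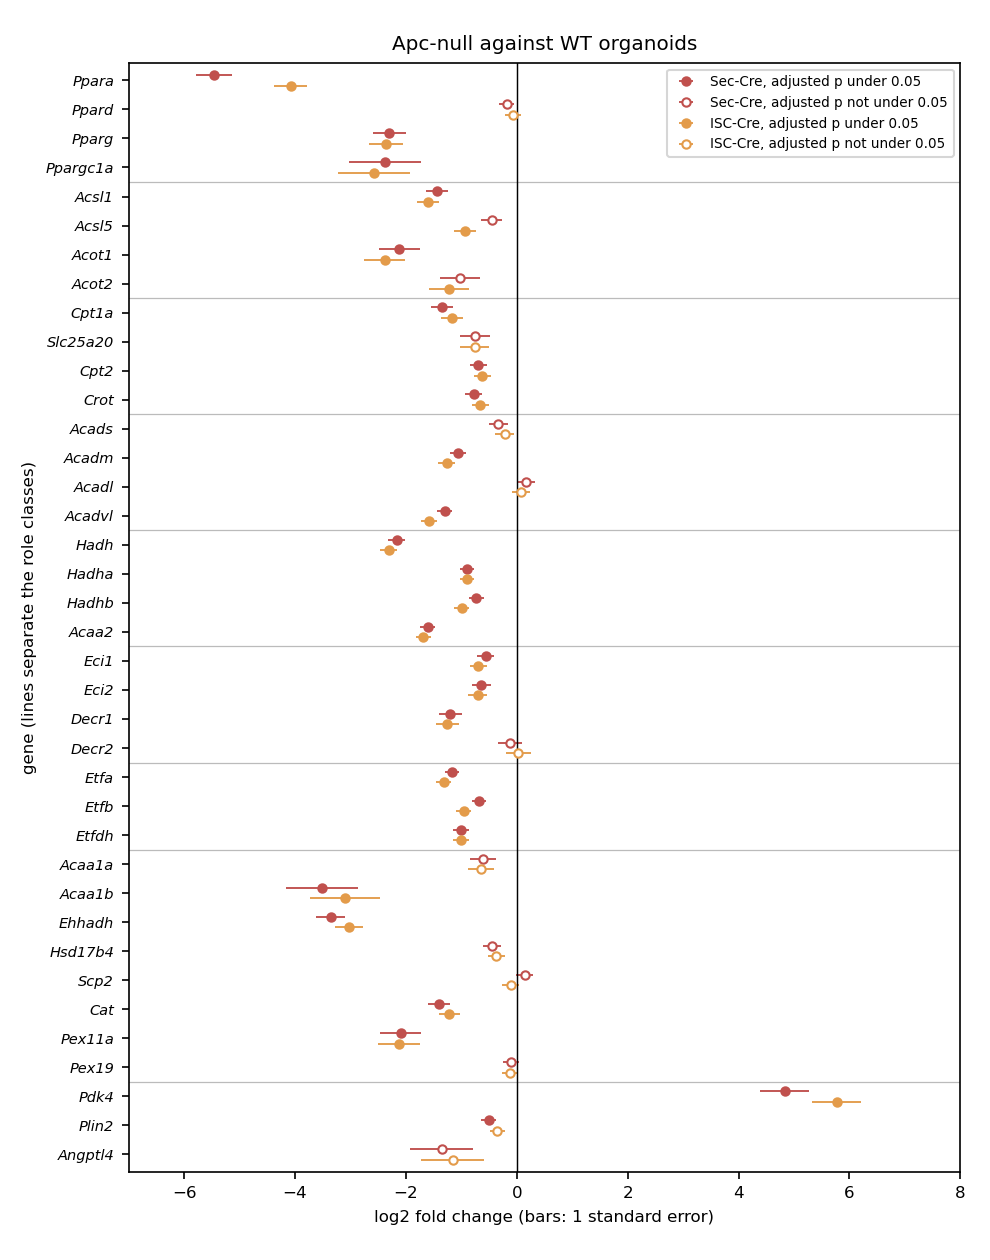
Log2 fold change of each of the 38 tested members in Sec-Cre and ISC-Cre organoids against the same 2 WT organoid libraries, by role, with bars of 1 standard error and filled points for adjusted p under 0.05. Ppara lies farthest to the left and Pdk4 is the only filled point right of 0.

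Among the receptors, Ppara fell most. This gene (chr15:85734983-85802819, plus strand, GRCm38) encodes the fatty acid receptor that drives oxidation genes in liver and gut. It stood at 0.844 and 0.828 CPM in Sec-Cre, 2.60 and 1.67 in ISC-Cre and 35.1 and 36.1 in WT organoids. The 4 Apc-null libraries lay between 0.828 and 2.60 CPM, far below both WT libraries. The log2 fold change was -5.45 ± 0.32 (adjusted p 5.29e-05) in Sec-Cre and -4.08 ± 0.30 (adjusted p 9.67e-05) in ISC-Cre organoids, that is 43.8-fold and 16.9-fold lower. Pparg, best known as the receptor of fat cells, stood at 9.54 and 6.0 CPM in Sec-Cre, 6.92 and 7.80 in ISC-Cre and 43.6 and 30.1 in WT organoids, again without overlap. Its log2 fold change was -2.30 ± 0.30 (adjusted p 0.00141) in Sec-Cre and -2.36 ± 0.30 (adjusted p 0.00107) in ISC-Cre organoids. Ppargc1a, the coactivator that promotes mitochondrial biogenesis, stood at 4.14 and 4.62 CPM in Sec-Cre, 2.76 and 4.85 in ISC-Cre and 35.6 and 8.4 in WT organoids. The 2 WT libraries were far apart here, and the lower of them was still above the 4 Apc-null libraries. The log2 fold change of Ppargc1a was -2.38 ± 0.64 (adjusted p 0.0266) in Sec-Cre and -2.57 ± 0.65 (adjusted p 0.0182) in ISC-Cre organoids. Ppard, the broadly expressed receptor, stood at 61.1 and 61.2 CPM in Sec-Cre, 65.0 and 66.2 in ISC-Cre and 73.4 and 60.8 in WT organoids, and the groups overlapped. Its log2 fold change of -0.19 ± 0.14 (adjusted p 0.357) in Sec-Cre and -0.07 ± 0.14 (adjusted p 0.747) in ISC-Cre organoids was not called, and the second was above 0 with unscaled library totals or without WT replicate 1.

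Activation and uptake genes fell less uniformly. Acsl1, an acyl-CoA synthetase of mitochondria and endoplasmic reticulum, stood at 28.0 and 29.9 CPM in Sec-Cre, 20.7 and 30.7 in ISC-Cre and 79.5 and 72.0 in WT organoids. Both WT libraries were above all 4 Apc-null libraries, and the log2 fold change was -1.44 ± 0.20 (adjusted p 0.00186) in Sec-Cre and -1.60 ± 0.20 (adjusted p 0.00101) in ISC-Cre organoids. Acot1, a cytosolic thioesterase that releases free fatty acid from acyl-CoA, stood at 8.27 and 12.7 CPM in Sec-Cre, 10.2 and 7.04 in ISC-Cre and 30.9 and 57.0 in WT organoids. It was called lower, at -2.12 ± 0.36 (adjusted p 0.00437) in Sec-Cre and -2.38 ± 0.37 (adjusted p 0.00239) in ISC-Cre organoids, with the caveat that 22.7% of its 31-base words are shared with Acot2. Acsl5, a synthetase abundant in enterocytes, stood at 242 and 278 CPM in Sec-Cre, 173 and 194 in ISC-Cre and 405 and 279 in WT organoids, and the log2 fold change was -0.45 ± 0.19 (adjusted p 0.11) in Sec-Cre and -0.94 ± 0.19 (adjusted p 0.00784) in ISC-Cre organoids, called in the second. Acot2, the mitochondrial relative of Acot1, was low at 4.05 and 3.08 CPM in Sec-Cre, 3.28 and 2.86 in ISC-Cre and 7.03 and 6.93 in WT organoids. Its log2 fold change was -1.02 ± 0.36 (adjusted p 0.0632) in Sec-Cre and -1.22 ± 0.36 (adjusted p 0.0327) in ISC-Cre organoids, again called in ISC-Cre organoids, and 37.2% of its words are shared with Acot1. The Acot2 call was lost under 4 alternatives besides leaving out a library.

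In the carnitine shuttle 3 of 4 genes were called lower in both groups. Cpt1a, the outer-membrane carnitine palmitoyltransferase that controls entry, stood at 52.2 and 38.0 CPM in Sec-Cre, 46.4 and 54.4 in ISC-Cre and 122 and 98.2 in WT organoids. The WT libraries lay above the others without overlap, and the log2 fold change was -1.34 ± 0.20 (adjusted p 0.00235) in Sec-Cre and -1.16 ± 0.20 (adjusted p 0.00351) in ISC-Cre organoids. Crot, the carnitine octanoyltransferase of peroxisomes, stood at 37.8 and 35.3 CPM in Sec-Cre, 40.8 and 37.9 in ISC-Cre and 62.4 and 58.8 in WT organoids. The decrease was smaller but the libraries of each group lay close together, with -0.78 ± 0.15 (adjusted p 0.00605) in Sec-Cre and -0.66 ± 0.14 (adjusted p 0.0107) in ISC-Cre organoids. Cpt2, the inner-membrane transferase, stood at 51.4 and 42.0 CPM in Sec-Cre, 45.3 and 51.6 in ISC-Cre and 72.5 and 73.1 in WT organoids and had -0.69 ± 0.15 (adjusted p 0.0124) in Sec-Cre and -0.62 ± 0.15 (adjusted p 0.0165) in ISC-Cre organoids. Slc25a20, the translocase between both membranes, stood at 26.6 and 26.6 CPM in Sec-Cre, 25.4 and 26.9 in ISC-Cre and 55.6 and 31.2 in WT organoids. Its 2 WT libraries were far apart and the log2 fold change, -0.76 ± 0.27 (adjusted p 0.0643) in Sec-Cre and -0.76 ± 0.27 (adjusted p 0.0578) in ISC-Cre organoids, was not called.

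The acyl-CoA dehydrogenases divided by gene. Acadvl, for very long chains, stood at 55.7 and 55.5 CPM in Sec-Cre, 48.1 and 42.5 in ISC-Cre and 140.0 and 125 in WT organoids, and Acadm, for medium chains, at 59.4 and 50.2 CPM in Sec-Cre, 48.7 and 44.9 in ISC-Cre and 114 and 106 in WT organoids. For both genes the WT libraries lay above every Apc-null library. The log2 fold change of Acadvl was -1.30 ± 0.14 (adjusted p 0.000597) in Sec-Cre and -1.58 ± 0.14 (adjusted p 0.000227) in ISC-Cre organoids, and that of Acadm was -1.06 ± 0.15 (adjusted p 0.00173) in Sec-Cre and -1.27 ± 0.15 (adjusted p 0.000689) in ISC-Cre organoids. Acadvl exons overlap those of Dvl2 on the opposite strand over 42.9% of their length, and counts without strand cannot separate the pair. Acads, for short chains, stood at 73.9 and 70.3 CPM in Sec-Cre, 85.5 and 69.0 in ISC-Cre and 96.8 and 78.6 in WT organoids and was not called (-0.33 (adjusted p 0.171) in Sec-Cre, -0.21 (adjusted p 0.36) in ISC-Cre). Acadl, for long chains, stood at 73.5 and 62.5 CPM in Sec-Cre, 59.5 and 66.0 in ISC-Cre and 64.0 and 52.4 in WT organoids with overlapping groups. Its log2 fold change was 0.17 (adjusted p 0.446) in Sec-Cre and 0.07 (adjusted p 0.753) in ISC-Cre organoids, the second below 0 without WT replicate 2.

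All 4 genes of the later mitochondrial steps were called lower in both groups. Hadh (chr3, minus strand), the hydroxyacyl-CoA dehydrogenase for short and medium chains, stood at 93.2 and 107 CPM in Sec-Cre, 94.4 and 84.6 in ISC-Cre and 468 and 398 in WT organoids. The Apc-null libraries spanned 84.6 to 107 CPM, a narrow band far below WT. The log2 fold change was -2.17 ± 0.15 (adjusted p 9.77e-05) in Sec-Cre and -2.31 ± 0.15 (adjusted p 6.76e-05) in ISC-Cre organoids. Acaa2, the thiolase that releases acetyl-CoA, stood at 55.5 and 55.8 CPM in Sec-Cre, 49.8 and 54.0 in ISC-Cre and 175 and 152 in WT organoids, with -1.61 ± 0.13 (adjusted p 0.000187) in Sec-Cre and -1.69 ± 0.13 (adjusted p 0.000132) in ISC-Cre organoids. Hadha and Hadhb form the trifunctional protein for long chains, and both had smaller decreases. Hadha stood at 199 and 179.7 CPM in Sec-Cre, 194 and 177 in ISC-Cre and 343 and 335 in WT organoids, with -0.89 ± 0.13 (adjusted p 0.00188) in Sec-Cre and -0.90 ± 0.13 (adjusted p 0.00149) in ISC-Cre organoids. Hadhb stood at 90.0 and 91.0 CPM in Sec-Cre, 66.3 and 82.8 in ISC-Cre and 147 and 143 in WT organoids, with -0.73 ± 0.13 (adjusted p 0.00582) in Sec-Cre and -0.99 ± 0.14 (adjusted p 0.00136) in ISC-Cre organoids. Neither pair of groups overlapped for these 4 genes.

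Of the auxiliary enzymes, which reposition double bonds in unsaturated fatty acids, Decr1 fell most. The mitochondrial dienoyl-CoA reductase Decr1 stood at 21.9 and 31.2 CPM in Sec-Cre, 25.6 and 24.9 in ISC-Cre and 62.8 and 54.7 in WT organoids, with -1.20 ± 0.21 (adjusted p 0.00434) in Sec-Cre and -1.25 ± 0.21 (adjusted p 0.00308) in ISC-Cre organoids. The isomerases Eci1 and Eci2 had smaller decreases. Eci1 stood at 37.8 and 39.5 CPM in Sec-Cre, 37.4 and 32.1 in ISC-Cre and 55.7 and 54.1 in WT organoids, with -0.56 ± 0.15 (adjusted p 0.0289) in Sec-Cre and -0.69 ± 0.15 (adjusted p 0.0113) in ISC-Cre organoids. Eci2 stood at 38.5 and 39.1 CPM in Sec-Cre, 38.7 and 34.2 in ISC-Cre and 64.3 and 52.2 in WT organoids, with -0.64 ± 0.17 (adjusted p 0.0246) in Sec-Cre and -0.71 ± 0.17 (adjusted p 0.0146) in ISC-Cre organoids. Both isomerases were lower in all 4 Apc-null libraries than in either WT library. Decr2, the peroxisomal reductase, stood at 30.8 and 27.2 CPM in Sec-Cre, 35.1 and 28.6 in ISC-Cre and 35.4 and 25.6 in WT organoids, overlapped between groups and was not called. Its log2 fold change of -0.12 (adjusted p 0.701) in Sec-Cre organoids was above 0 with unscaled totals or without WT replicate 1, and that of 0.03 (adjusted p 0.928) in ISC-Cre organoids was below 0 without ISC-Cre replicate 1 or WT replicate 2.

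The electron transfer flavoprotein system, which takes electrons from the acyl-CoA dehydrogenases, fell as a whole. Etfa, its alpha subunit, stood at 74.0 and 82.0 CPM in Sec-Cre, 68.3 and 70.1 in ISC-Cre and 180.0 and 158 in WT organoids, with -1.17 ± 0.13 (adjusted p 0.000716) in Sec-Cre and -1.32 ± 0.13 (adjusted p 0.000361) in ISC-Cre organoids. Etfb, the beta subunit, stood at 51.2 and 53.6 CPM in Sec-Cre, 41.1 and 44.1 in ISC-Cre and 78.2 and 83.5 in WT organoids, with -0.68 ± 0.13 (adjusted p 0.00667) in Sec-Cre and -0.96 ± 0.13 (adjusted p 0.00133) in ISC-Cre organoids. Etfdh, the membrane enzyme that passes the electrons to ubiquinone, stood at 49.0 and 50.1 CPM in Sec-Cre, 51.6 and 46.7 in ISC-Cre and 88.4 and 104 in WT organoids, with -1.01 ± 0.14 (adjusted p 0.00199) in Sec-Cre and -1.0 ± 0.14 (adjusted p 0.00175) in ISC-Cre organoids. No Apc-null library reached the lower WT library for any of the 3 genes. A share of 49.9% of Etfb words also occurs in a gene that the tables did not count.

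The peroxisomal genes ranged from deep decreases to no call. Ehhadh, the bifunctional enzyme and a classical PPAR target, stood at 6.97 and 8.64 CPM in Sec-Cre, 7.48 and 12.1 in ISC-Cre and 75.7 and 78.7 in WT organoids. Both WT libraries were far above every Apc-null library, and the log2 fold change was -3.36 ± 0.26 (adjusted p 0.000138) in Sec-Cre and -3.02 ± 0.25 (adjusted p 0.000166) in ISC-Cre organoids. Acaa1b, a peroxisomal thiolase, was low throughout at 0.295 and 0.552 CPM in Sec-Cre, 0.640 and 0.476 in ISC-Cre and 6.12 and 3.38 in WT organoids. It was called lower with -3.51 ± 0.65 (adjusted p 0.00591) in Sec-Cre and -3.10 ± 0.64 (adjusted p 0.00782) in ISC-Cre organoids, and 40.0% of its words are shared with Acaa1a. Acaa1a, its more abundant copy, stood at 57.7 and 65.8 CPM in Sec-Cre, 71.5 and 46.6 in ISC-Cre and 78.8 and 102 in WT organoids and was not called (-0.60 (adjusted p 0.0852) in Sec-Cre, -0.64 (adjusted p 0.0648) in ISC-Cre). Catalase, which removes the hydrogen peroxide made by peroxisomal oxidation, fell without overlap. Cat stood at 72.7 and 76.2 CPM in Sec-Cre, 97.4 and 70.1 in ISC-Cre and 167 and 214 in WT organoids, with -1.40 ± 0.20 (adjusted p 0.00194) in Sec-Cre and -1.21 ± 0.20 (adjusted p 0.00293) in ISC-Cre organoids. Pex11a, a peroxin that promotes peroxisome division, stood at 2.95 and 2.13 CPM in Sec-Cre, 2.76 and 2.14 in ISC-Cre and 11.5 and 9.46 in WT organoids, with -2.10 ± 0.38 (adjusted p 0.00514) in Sec-Cre and -2.13 ± 0.38 (adjusted p 0.00419) in ISC-Cre organoids.

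The remaining peroxisomal members were not called in organoids. Hsd17b4, the multifunctional enzyme for branched chains, stood at 108 and 90.1 CPM in Sec-Cre, 106 and 101 in ISC-Cre and 144 and 116 in WT organoids and had -0.44 (adjusted p 0.0681) in Sec-Cre and -0.37 (adjusted p 0.11) in ISC-Cre organoids. Scp2, whose longer product is the thiolase for branched chains, stood at 214 and 168 CPM in Sec-Cre, 147 and 169 in ISC-Cre and 161 and 172 in WT organoids. The groups overlapped, with 0.14 (adjusted p 0.508) in Sec-Cre, below 0 without Sec-Cre replicate 1, and -0.11 (adjusted p 0.607) in ISC-Cre, above 0 with unscaled totals. Pex19, the carrier of peroxisomal membrane proteins, stood at 81.2 and 81.6 CPM in Sec-Cre, 78.9 and 79.4 in ISC-Cre and 92.8 and 75.9 in WT organoids. It had -0.10 (adjusted p 0.611) in Sec-Cre and -0.13 (adjusted p 0.52) in ISC-Cre organoids, and both were above 0 with unscaled totals or without WT replicate 1. Of these 3, Hsd17b4 alone was lower in all 4 Apc-null libraries than in both WT libraries.

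Pdk4 moved against the rest. It encodes a kinase that shuts off pyruvate dehydrogenase when fat is burned, and is a common PPAR target (chr6, minus strand). Pdk4 stood at 12.5 and 8.28 CPM in Sec-Cre, 17.1 and 22.2 in ISC-Cre and 0.211 and 0.444 in WT organoids. The WT libraries were near 0, and every Apc-null library was far above them. The log2 fold change was 4.83 ± 0.44 (adjusted p 0.000284) in Sec-Cre and 5.77 ± 0.45 (adjusted p 0.000125) in ISC-Cre organoids, that is 28.5-fold and 54.5-fold higher. Plin2, a coat protein of lipid droplets, stood at 53.2 and 53.7 CPM in Sec-Cre, 56.8 and 61.1 in ISC-Cre and 68.6 and 77.8 in WT organoids and was called lower in Sec-Cre organoids, with -0.51 ± 0.13 (adjusted p 0.0233) in Sec-Cre and -0.35 ± 0.13 (adjusted p 0.0736) in ISC-Cre organoids. Angptl4, a secreted inhibitor of lipoprotein lipase, stood at 1.31 and 2.88 CPM in Sec-Cre, 2.92 and 1.81 in ISC-Cre and 6.61 and 3.78 in WT organoids. All 4 Apc-null libraries were below both WT libraries, but the log2 fold change, -1.35 ± 0.57 (adjusted p 0.108) in Sec-Cre and -1.16 ± 0.56 (adjusted p 0.149) in ISC-Cre organoids, was not called. Cyp4a10, a fatty acid omega-hydroxylase, had 0 counts in the 6 organoid libraries and was not tested.

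**Figure D3:**
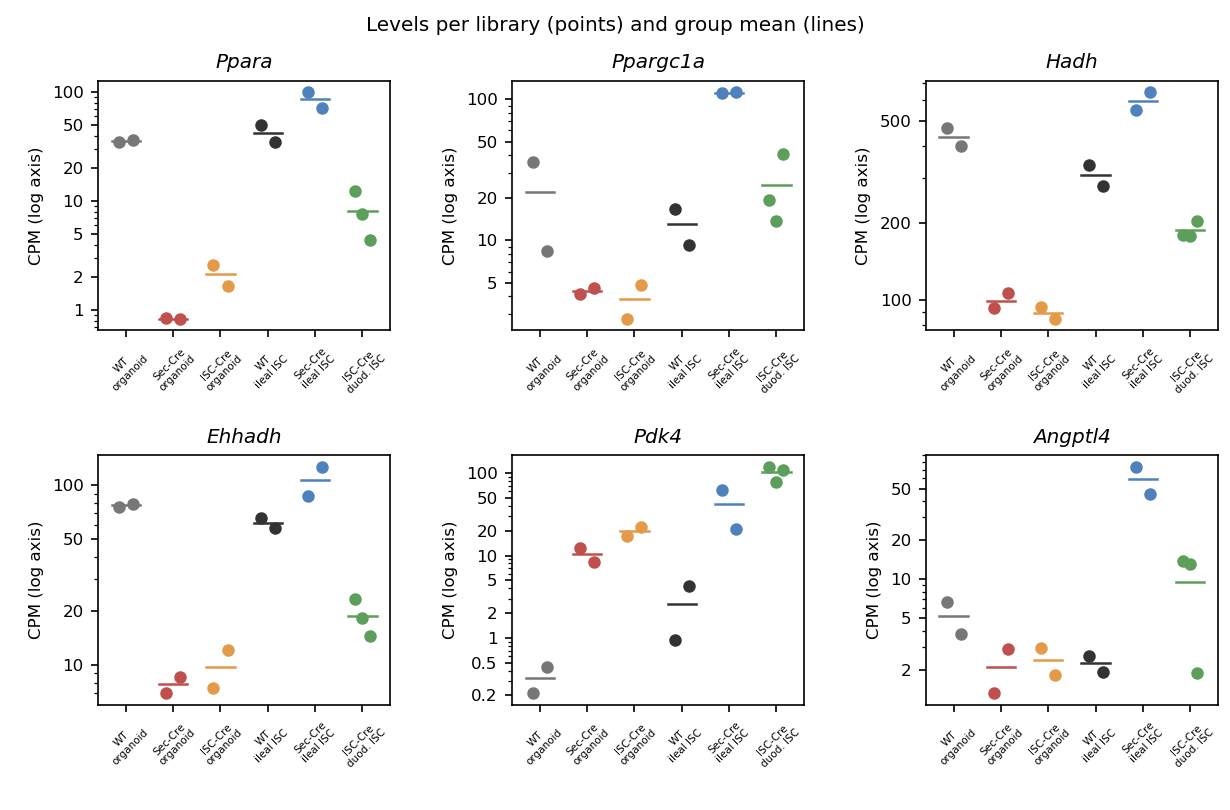
CPM per library (points, log axis) and group mean (lines) of Ppara, Ppargc1a, Hadh, Ehhadh, Pdk4 and Angptl4 in the 6 groups. Ppara, Hadh and Ehhadh are low in both Apc-null organoid groups and high in WT organoids and in the libraries labelled Sec-Cre ileal ISC, whereas Pdk4 is lowest in the WT groups.

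The 2 Apc-null organoid groups differ in the cell in which Cre was active. No member was called in Sec-Cre against ISC-Cre organoids (0 of 38 with edgeR and 0 with DESeq2), where 0.0422% of all genes were called lower and 0% higher. DESeq2 called 20 higher and 51 lower of all 14208 genes. At an unadjusted p under 0.05 there were 1 higher and 2 lower members, with no share over all genes computed at that threshold. The median log2 fold change was 0.03. The largest differences were in Ppara (-1.37 ± 0.32, adjusted p 0.749), which had 0.844 and 0.828 CPM in Sec-Cre and 2.60 and 1.67 in ISC-Cre organoids, and Pdk4 (-0.94 ± 0.32, adjusted p 0.984), which had 12.5 and 8.28 and 17.1 and 22.2 CPM. Acsl5 was 0.49 ± 0.19 (adjusted p 0.984). Their libraries did not overlap, and none of the 3 passed the adjusted threshold.

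In the ileal ISC libraries labelled Sec-Cre the members' direction was the opposite. This group had higher enterocyte and lower stem cell marker sums than WT, as given below, and is an ISC group by its label. In the libraries labelled Sec-Cre, 14 of 38 members were called higher than in WT ileal ISCs and 0 lower, where 9.62% of all 14577 genes were called higher and 6.96% lower. At an unadjusted p under 0.05 there were 24 higher and 2 lower members, with no share over all genes computed at that threshold. DESeq2 called 22 members higher and 2 lower, and 2211 higher and 1579 lower of all 14577 genes. The members' median log2 fold change was 1.01 against 0 over all genes. Summed member levels were 5991 and 8058 CPM in the libraries labelled Sec-Cre and 3526 and 3350.0 in WT. As a share of gene counts without scaling, the members took 0.211 and 0.705% against 0.366 and 0.355%, so replicate 1 lay below WT on that measure. The CPM levels given for these libraries, and their order against WT, rest on the TMM scaling. With unscaled totals 3 members were called higher and 1 lower, the members' median was 0.30, and the median over all genes moved to -0.71.

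These calls rested on few libraries. Without WT ileal ISC replicate 1 no member was called higher (0 of 14 calls kept) and without WT replicate 2 only Pdk4 kept its call. Without Sec-Cre replicate 2, 8 of the 14 calls were kept, and without replicate 1, 13 were kept. Over all genes the calls dropped alongside, from 1403 higher and 1014 lower to 190 and 82 without WT replicate 1 and to 99 and 54 without WT replicate 2. Enterocyte markers moved with the members: 15 of 16 were called higher, and they summed to 37376 and 24736 CPM in the libraries labelled Sec-Cre against 2864 and 2652 in WT. Enteroendocrine markers summed to 248 and 427 against 622 and 863 CPM and goblet markers to 35197 and 5471 against 13902 and 15824 CPM. The 4 adipocyte markers summed to 57.6 and 55.4 against 0.186 and 0.658 CPM. Stem cell markers summed to 1768 and 2447 against 5484 and 5688 CPM, and 5 cell cycle genes to 321 and 460.0 against 1605 and 1537 CPM. The part of cell makeup, unmapped share or the Paneth content of replicate 1 in the members' levels was not tested.

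**Figure D4:**
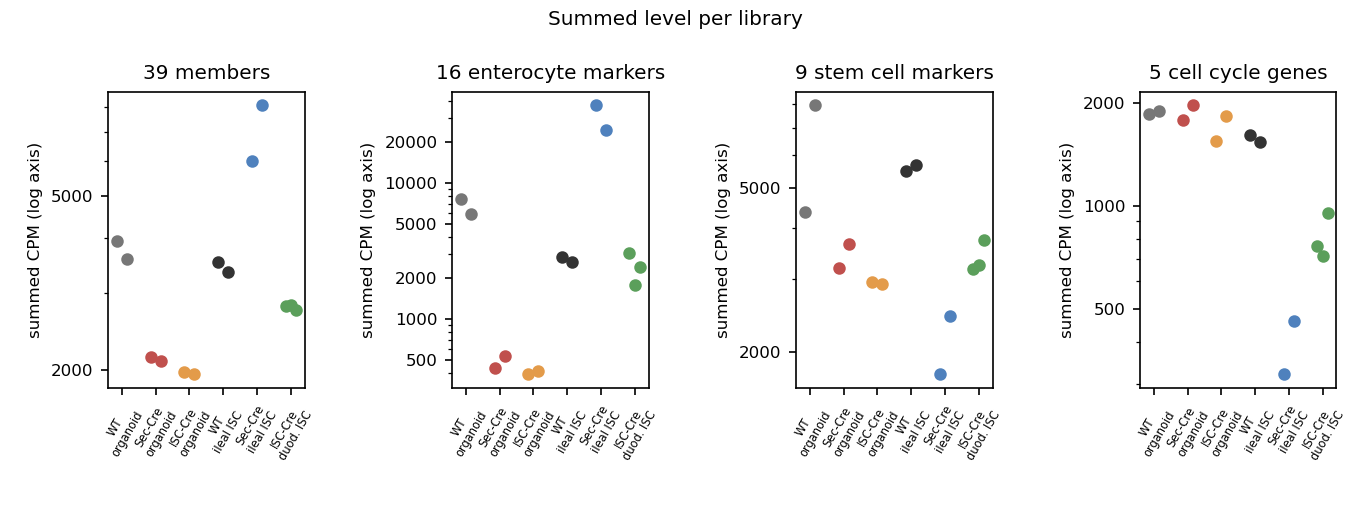
Summed CPM per library (log axis) of the 39 members, 16 enterocyte markers, 9 stem cell markers and 5 cell cycle genes. The member sum is lowest in the Apc-null organoids and highest in the libraries labelled Sec-Cre ileal ISC, as is the enterocyte sum.

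Among the receptors and coactivators, Ppargc1a was called higher in the ileal libraries labelled Sec-Cre. It stood at 111 and 112 CPM in Sec-Cre ileal ISCs, 16.7 and 9.22 in WT ileal ISCs and 19.3, 13.7 and 40.6 in duodenal ISCs, and both libraries labelled Sec-Cre were far above the WT libraries (3.11 ± 0.54, adjusted p 0.00877). Ppara stood at 99.7 and 72.3 CPM in Sec-Cre ileal ISCs, 50.3 and 34.8 in WT ileal ISCs and 12.5, 7.63 and 4.40 in duodenal ISCs. Against WT ileal ISCs it was 1.02 ± 0.48 (adjusted p 0.174) in the libraries labelled Sec-Cre, which was not called, and -2.37 ± 0.43 (adjusted p 0.00744) in duodenal ISCs. All 3 duodenal libraries were thus below both WT libraries, as in Apc-null organoids. Ppard stood at 91.4 and 24.9 CPM in Sec-Cre ileal ISCs, 207 and 164 in WT ileal ISCs and 42.4, 49.9 and 58.0 in duodenal ISCs. It had -1.68 ± 0.53 (adjusted p 0.0616) in the libraries labelled Sec-Cre and -1.89 ± 0.47 (adjusted p 0.0251) in duodenal ISCs, where it was called lower. Pparg stood at 5.17 and 17.2 CPM in Sec-Cre ileal ISCs, 11.0 and 13.2 in WT ileal ISCs and 22.3, 23.7 and 42.1 in duodenal ISCs. It was called in neither, with -0.07 ± 0.56 (adjusted p 0.954), a value that was above 0 without Sec-Cre replicate 1 or WT replicate 2, and 1.28 ± 0.53 (adjusted p 0.127).

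The duodenal libraries were then set against the same 2 WT ileal libraries. In duodenal ISCs 3 of 38 members were called higher and 8 lower, against 10.2% and 8.84% of all genes, and the median log2 fold change was -0.44 against 0.07 over all genes. Leaving out either WT library, which leaves 1 library in that group, ended most of the member calls, and calls over all genes fell as well. Leaving out a duodenal library left 4 (replicate 1), 5 (replicate 2) or 8 (replicate 3) of the 11 calls. Over all genes, 1494 higher and 1289 lower calls then fell to 722 and 648, 782 and 670, and 1148 and 1078, in the same order. Summed levels were 2799, 2808 and 2743 CPM, and enterocyte markers summed to 3054, 1786 and 2411 CPM, against 2864 and 2652 in WT ileal ISCs. Stromal and endothelial markers summed to 79.3, 113 and 148 CPM in duodenal libraries against 0.557 and 0.709 in WT ileal ISCs. Goblet markers summed to 715, 1033 and 1196 against 13902 and 15824 CPM, with 5 of 7 called lower, and enteroendocrine markers to 31.9, 29.2 and 42.0 against 622 and 863 CPM, with 8 of 9 called lower. Stem cell markers summed to 3179.6, 3259 and 3735 against 5484 and 5688 CPM, although 4 of 9 were called higher and 1 lower. The cell cycle genes summed to 763, 713 and 954 against 1605 and 1537 CPM, with 2 of 5 called lower. The part of these cell types in the members' values was not tested. Only Pdk4 kept its call under every alternative.

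**Figure D5:**
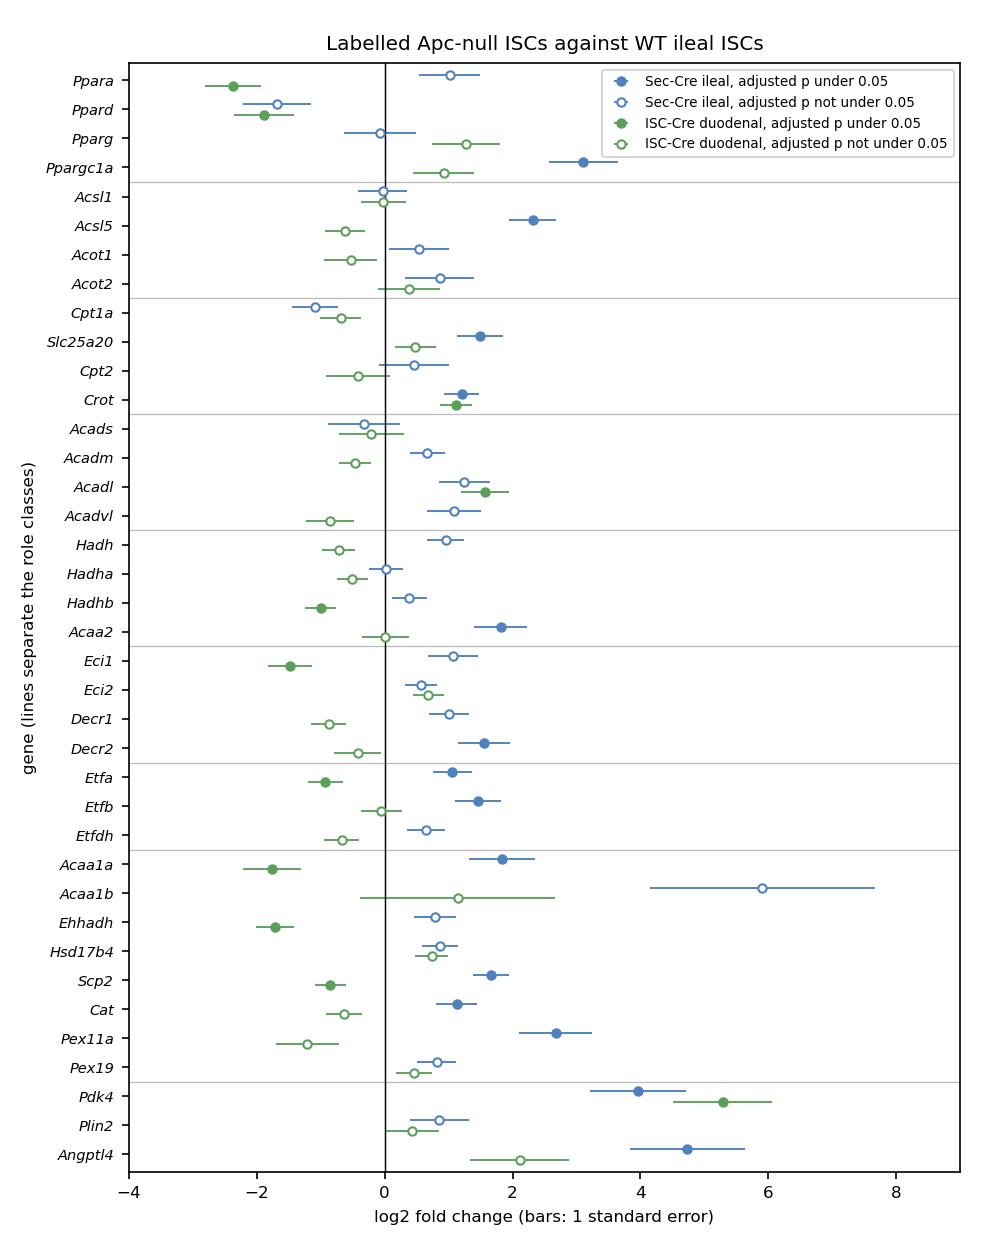
Log2 fold change of each of the 38 tested members in ileal ISCs labelled Sec-Cre and in duodenal ISC-Cre ISCs against the same 2 WT ileal ISC libraries, by role, with bars of 1 standard error and filled points for adjusted p under 0.05. The 14 filled Sec-Cre points all lie right of 0, and the filled duodenal points lie on both sides.

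Genes of activation and import illustrate the difference. Acsl5 stood at 923 and 1330.2 CPM in Sec-Cre ileal ISCs, 223 and 229.6 in WT ileal ISCs and 172, 160.1 and 109 in duodenal ISCs. The libraries labelled Sec-Cre were far above all others, with 2.31 ± 0.37 (adjusted p 0.00663). Slc25a20 stood at 68.7 and 114 CPM in Sec-Cre ileal ISCs, 25.5 and 39.5 in WT ileal ISCs and 45.5, 48.4 and 41.8 in duodenal ISCs, and was called higher in the libraries labelled Sec-Cre (1.49 ± 0.35, adjusted p 0.0256). Crot was called higher in the libraries labelled Sec-Cre and in duodenal ISCs. It stood at 74.6 and 98.7 CPM in Sec-Cre ileal ISCs, 38.7 and 36.5 in WT ileal ISCs and 86.0, 82.4 and 76.3 in duodenal ISCs, with 1.21 ± 0.27 (adjusted p 0.021) in the libraries labelled Sec-Cre and 1.12 ± 0.25 (adjusted p 0.0173) in duodenal ISCs. Cpt1a stood at 87.2 and 162 CPM in Sec-Cre ileal ISCs, 277 and 255 in WT ileal ISCs and 167, 129.7 and 199 in duodenal ISCs, lowest in a library labelled Sec-Cre, and was called in neither (-1.09 (adjusted p 0.0693) and -0.69 (adjusted p 0.168)).

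Among the mitochondrial spiral genes, Acaa2, Etfa and Etfb were called higher in the libraries labelled Sec-Cre. Acaa2 stood at 356 and 494 CPM in Sec-Cre ileal ISCs, 129 and 112 in WT ileal ISCs and 146, 148 and 69.7 in duodenal ISCs (1.81 ± 0.42, adjusted p 0.0229). Etfa stood at 261 and 384 CPM in Sec-Cre ileal ISCs, 159.8 and 150.2 in WT ileal ISCs and 86.7, 89.0 and 68.0 in duodenal ISCs, with 1.06 ± 0.30 (adjusted p 0.0466), and in duodenal ISCs was called lower with -0.93 ± 0.27 (adjusted p 0.0453). Etfb stood at 156 and 273 CPM in Sec-Cre ileal ISCs, 78.5 and 77.3 in WT ileal ISCs and 76.2, 91.6 and 56.9 in duodenal ISCs (1.46 ± 0.36, adjusted p 0.0288). For these 3 genes both libraries labelled Sec-Cre were above every WT ileal and duodenal library. Duodenal ISCs were lower than WT in Hadhb and Eci1 and higher in Acadl. Hadhb stood at 128 and 184 CPM in Sec-Cre ileal ISCs, 115 and 123 in WT ileal ISCs and 57.9, 61.8 and 58.4 in duodenal ISCs (-1.0 ± 0.25 (adjusted p 0.0249) in duodenal ISCs). Eci1 stood at 165 and 178 CPM in Sec-Cre ileal ISCs, 82.7 and 80.3 in WT ileal ISCs and 31.2, 39 and 16.7 in duodenal ISCs (-1.48 ± 0.35, adjusted p 0.0204). Acadl stood at 203 and 219 CPM in Sec-Cre ileal ISCs, 72.0 and 105 in WT ileal ISCs and 191, 212 and 388 in duodenal ISCs (1.57 ± 0.38, adjusted p 0.0231), so all 3 duodenal libraries exceeded both WT libraries.

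Of the peroxisomal genes, Acaa1a and Scp2 were called in opposite directions in the 2 ISC comparisons with WT. Acaa1a stood at 255 and 516 CPM in Sec-Cre ileal ISCs, 109 and 106 in WT ileal ISCs and 38.0, 41.7 and 15.4 in duodenal ISCs. It was called higher in the libraries labelled Sec-Cre (1.84 ± 0.51, adjusted p 0.0424) and lower in duodenal ISCs (-1.75 ± 0.45, adjusted p 0.0294). Scp2 stood at 461 and 555 CPM in Sec-Cre ileal ISCs, 171 and 150.4 in WT ileal ISCs and 92.5, 91.3 and 83.5 in duodenal ISCs, and had 1.66 ± 0.28 (adjusted p 0.00748) and -0.85 ± 0.24 (adjusted p 0.0432) in the same order. Both genes, together with Etfa, were the 3 members called in opposite directions in these comparisons, which share the WT libraries (7.89% of members tested, against 1.17% of all genes). Cat stood at 151 and 267 CPM in Sec-Cre ileal ISCs, 105 and 86.3 in WT ileal ISCs and 61.1, 62.8 and 61.3 in duodenal ISCs, Pex11a at 102 and 39.2 CPM in Sec-Cre ileal ISCs, 8.30 and 13.7 in WT ileal ISCs and 6.0, 5.22 and 2.98 in duodenal ISCs and Decr2 at 88.2 and 110.2 CPM in Sec-Cre ileal ISCs, 35.7 and 32.2 in WT ileal ISCs and 28.6, 32.5 and 14.5 in duodenal ISCs. They were called higher in the libraries labelled Sec-Cre, with 1.13 ± 0.32 (adjusted p 0.0446) for Cat, 2.67 ± 0.57 (adjusted p 0.0176) for Pex11a and 1.55 ± 0.41 (adjusted p 0.0348) for Decr2. Ehhadh stood at 86.7 and 127 CPM in Sec-Cre ileal ISCs, 65.4 and 58.1 in WT ileal ISCs and 23.3, 18.2 and 14.5 in duodenal ISCs and was called lower in duodenal ISCs (-1.72 ± 0.30, adjusted p 0.00582).

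Of the other PPAR targets, Angptl4 and Pdk4 had the largest called increases in the libraries labelled Sec-Cre. Pdk4 stood at 62.3 and 21.2 CPM in Sec-Cre ileal ISCs, 0.929 and 4.25 in WT ileal ISCs and 121, 78.9 and 109 in duodenal ISCs. All 5 libraries of the duodenal group and of the group labelled Sec-Cre were above both WT libraries, with 3.97 ± 0.75 (adjusted p 0.0111) in the libraries labelled Sec-Cre and 5.29 ± 0.77 (adjusted p 0.00269) in duodenal ISCs. Pdk4 was the only member called in the same direction in all 4 comparisons with WT, the ileal group being taken by its label. Angptl4 stood at 73.9 and 45.1 CPM in Sec-Cre ileal ISCs, 2.54 and 1.92 in WT ileal ISCs and 13.7, 13.1 and 1.89 in duodenal ISCs. It was called higher in the libraries labelled Sec-Cre (4.73 ± 0.90, adjusted p 0.0111), and its duodenal value of 2.11 ± 0.77 (adjusted p 0.0912) was not called, with replicate 3 at WT level. Plin2 stood at 44.3 and 138 CPM in Sec-Cre ileal ISCs, 55.3 and 45.7 in WT ileal ISCs and 70.2, 71.4 and 62.9 in duodenal ISCs and was called in neither, with 0.86 (adjusted p 0.224), below 0 without Sec-Cre replicate 2, and 0.44 (adjusted p 0.507). Cyp4a10 had 5 and 37 counts in the libraries labelled Sec-Cre, 7, 5 and 0 in duodenal libraries and 0 in WT. Against 3 counts over the WT group, its observed level was 11.4-fold higher in the libraries labelled Sec-Cre and 1.69-fold higher in duodenal ISCs. These ratios leave out the counting error of the higher group. The duodenal ratio rests on 12 counts, with 0 in 1 library, and does not establish a difference from WT. Of the Cyp4a10 words, 44.9% are shared with Cyp4a32.

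Against the ileal libraries labelled Sec-Cre, duodenal ISCs were called lower in 22 of 38 members and higher in 0, against 19.8% and 21% of all genes. The largest differences among the called members were Acaa1b (-4.77 ± 1.35, adjusted p 0.0226), Pex11a (-3.88 ± 0.51, adjusted p 0.000846) and Acaa1a (-3.59 ± 0.47, adjusted p 0.00081). Acsl5 was -2.93 ± 0.33 (adjusted p 0.000418) and Ppara -3.38 ± 0.45 (adjusted p 0.000833). DESeq2 called 1 member higher and 23 lower, and 3474 higher and 3181 lower of all 14577 genes. Region, time, driver and library type cannot be told apart here, and enterocyte markers were 16 of 16 lower in the same comparison. Leaving out any single library kept 20 to 21 of the 22 calls, and unscaled totals kept 8.

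A further 10 members were called, among the comparisons that hold ISC libraries, only in this one or in the interaction given next. The same holds for Pparg, whose levels are given above. Hadh stood at 549 and 644 CPM in Sec-Cre ileal ISCs, 337 and 278 in WT ileal ISCs and 179.8, 178 and 204 in duodenal ISCs. All 3 duodenal libraries were below both WT libraries and both libraries labelled Sec-Cre were above them, and duodenal ISCs had -1.67 ± 0.26 (adjusted p 0.00172) against the libraries labelled Sec-Cre. Acadvl stood at 166 and 365 CPM in Sec-Cre ileal ISCs, 129 and 119.9 in WT ileal ISCs and 77.1, 81.7 and 47.7 in duodenal ISCs, with -1.94 ± 0.38 (adjusted p 0.00471). Acadm stood at 139 and 182 CPM in Sec-Cre ileal ISCs, 105 and 98.1 in WT ileal ISCs and 79.2, 76.8 and 63.9 in duodenal ISCs, with -1.13 ± 0.25 (adjusted p 0.00759). Both dehydrogenases had the same order of groups as Hadh, without overlap. Decr1 stood at 119 and 133 CPM in Sec-Cre ileal ISCs, 68.1 and 57.2 in WT ileal ISCs and 35.4, 41.3 and 25.3 in duodenal ISCs, with -1.88 ± 0.28 (adjusted p 0.00139), and Etfdh stood at 120.2 and 186 CPM in Sec-Cre ileal ISCs, 95.7 and 99.7 in WT ileal ISCs and 66.8, 65.1 and 52.2 in duodenal ISCs, with -1.32 ± 0.27 (adjusted p 0.00596). These 2 genes also ran from duodenal to WT to the libraries labelled Sec-Cre. Acaa1b, with 7 and 0 counts in WT ileal ISCs, stood at 9.85 and 15.4 CPM in Sec-Cre ileal ISCs, 0.434 and 0 in WT ileal ISCs and 1.10, 0.244 and 0 in duodenal ISCs. It had the largest log2 fold change of any member against WT in the libraries labelled Sec-Cre, 5.91 ± 1.75 (adjusted p 0.0512), which was not called but was called with DESeq2.

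The other 4 members were, like Pparg, called in the interaction alone among the ISC-based comparisons. Hadha stood at 279 and 258 CPM in Sec-Cre ileal ISCs, 258 and 270.0 in WT ileal ISCs and 179, 181 and 200.2 in duodenal ISCs, and Acot1 stood at 27.1 and 14.7 CPM in Sec-Cre ileal ISCs, 15.2 and 13.3 in WT ileal ISCs and 9.91, 12.5 and 7.09 in duodenal ISCs. Eci2 stood at 77.6 and 89.2 CPM in Sec-Cre ileal ISCs, 51.4 and 60.8 in WT ileal ISCs and 90.4, 94.4 and 85.9 in duodenal ISCs, and Hsd17b4 stood at 190.1 and 150.1 CPM in Sec-Cre ileal ISCs, 90.3 and 96.3 in WT ileal ISCs and 144, 175 and 146 in duodenal ISCs. For Eci2 and Hsd17b4 the WT libraries were the lowest of the 7, whereas Hadha was lowest in the duodenal libraries. Acsl1, which fell in organoids, overlapped between the ISC groups at 79.5 and 66.1 CPM in Sec-Cre ileal ISCs, 68.8 and 79.8 in WT ileal ISCs and 60.1, 50.7 and 110.1 in duodenal ISCs and was not called among them.

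Whether the Sec-Cre minus WT difference was unlike between organoids and ileal ISCs was tested by an interaction term over all 13 libraries. The ileal group was again taken by its label. Culture, cell sorting and labelled time differ between the 2 settings and cannot be told apart. The Sec-Cre minus WT difference was lower in organoids than in ISCs for 28 of 38 members and higher for 0, where 13% and 13.4% of 15208 genes were called. The median difference was -1.88 against 0.16 over all genes, and enterocyte markers were lower in 16 of 16. Ppara (-6.41 ± 0.65, adjusted p 4.35e-05), Ehhadh (-4.10 ± 0.45, adjusted p 7.35e-05) and Hadh (-3.07 ± 0.32, adjusted p 4.7e-05) had the smallest adjusted p. For Ppara, 1.02 in ISCs stood beside -5.45 in organoids. Pdk4, higher in both settings, had a difference of 0.92 ± 0.98 (adjusted p 0.539) that was not called and was below 0 without WT ileal ISC replicate 2. With unscaled totals 8 members remained lower, Hadha was then slightly above 0, and the median over all genes moved to 1.0. Leaving out 1 of the 8 libraries concerned kept 21 to 28 of the 28 calls; the 21 were kept without Sec-Cre organoid replicate 1, Sec-Cre organoid replicate 2, WT organoid replicate 1 or WT ileal ISC replicate 1.

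WT organoids and WT ileal ISCs differ in culture, cell sorting, labelled time (10 against 21 dpi) and genotype, which cannot be told apart, and gave few calls. Of 38 members 0 were called higher and 1 lower in organoids, against 1.98% and 1.89% of all genes (3.87% in either direction). At an unadjusted p under 0.05, where no share over all genes was computed, 7 were higher and 3 lower. DESeq2 called 5 members higher and 3 lower, and 571 higher and 617 lower of all 15208 genes. Cpt1a stood at 122 and 98.2 CPM in WT organoids and 277 and 255 in WT ileal ISCs (-1.27 ± 0.31, adjusted p 0.0434), and lost this call when any of the 4 WT libraries was left out. Ppard, at 73.4 and 60.8 and 207 and 164 CPM, was -1.47 ± 0.43 (adjusted p 0.0922). The median was 0.12, against 0 over all genes.

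Genes of neighbouring pathways, taken from 6 lists of named genes, were read from the same fits. Of 33 other fatty acid oxidation genes tested, 15 were called lower and 4 higher in Sec-Cre organoids and 17 and 4 in ISC-Cre organoids. Counts for this and the next lists stand against 16.3% of all genes lower and 16.7% higher in Sec-Cre organoids and 18.5% and 19.3% in ISC-Cre organoids. Phyh, which starts the alpha-oxidation of branched chains, was -1.92 ± 0.32 (adjusted p 0.00375) in Sec-Cre organoids, and Acsl4, the synthetase for arachidonic acid, was 1.65 ± 0.17 (adjusted p 0.000465). Of 15 further PPAR targets 9 were lower and 1 higher in Sec-Cre organoids and 8 and 1 in ISC-Cre organoids. The fatty acid-binding protein Fabp2 (-3.37 ± 0.32, adjusted p 0.00034) and the factor Creb3l3 (-7.32 ± 0.40, adjusted p 4.45e-05) had the smallest adjusted p among those with more than 3 counts in each group. Of 14 transcriptional partners 8 were lower and 1 higher in Sec-Cre and 9 and 1 in ISC-Cre organoids, among them Hnf4a, the enterocyte factor that shares many targets with PPARs, at -1.57 ± 0.12 (adjusted p 0.00015) and -1.94 ± 0.12 (adjusted p 6.05e-05). The 5 ketone body genes had 3 lower calls in Sec-Cre and 4 in ISC-Cre organoids, with Acat1 at -1.91 ± 0.13 (adjusted p 8.17e-05) and -2.08 ± 0.13 (adjusted p 5.64e-05).

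Fatty acid synthesis genes did not mirror oxidation: 6 of 14 were lower and 0 higher in each organoid comparison, led in Sec-Cre organoids by Mlxipl (-2.22 ± 0.17, adjusted p 0.000144), the carbohydrate-response factor. Of 16 peroxisome biogenesis genes 2 were lower in Sec-Cre and 5 in ISC-Cre organoids and 0 higher in either, and the Sec-Cre count was a smaller share than the 16.3% over all genes. In the ileal libraries labelled Sec-Cre, 7 of 35 other oxidation genes were higher and 1 lower, where 9.62% of all genes were higher and 6.96% lower. Synthesis genes there had 5 lower and 1 higher of 14, with Acaca, the malonyl-CoA-forming carboxylase, at -2.74 ± 0.34 (adjusted p 0.00344). Of 13 further targets 6 were higher and 1 lower, including Slc27a4 (2.74 ± 0.37, adjusted p 0.00412). In duodenal ISCs, where 8.84% of all genes were lower, 6 of 14 partners were lower, with Hnf4g at -2.36 ± 0.32 (adjusted p 0.00205).

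Across the 4 comparisons with WT, with the ileal group taken by its label, 10 members (26.3% of those tested) were called in opposite directions, as were 6.19% of the 13708 genes tested in both fits: Ppargc1a, Acsl5, Crot, Acaa2, Etfa, Etfb, Acaa1a, Scp2, Cat and Pex11a. Of these, 7 were lower in both organoid groups and higher in the ileal libraries labelled Sec-Cre, 18.4% of members against 3.16% of all genes. Lower in both organoid groups and also in duodenal ISCs were 5 members, Ppara, Hadhb, Eci1, Etfa and Ehhadh, 13.2% against 5.05% of all genes. The comparisons share WT libraries in pairs, so these counts are not of independent results. The 3 members never called were Acads, Pex19 and Cyp4a10, the last of which had too few counts to be tested.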

How the data were processed

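Polyadenylated RNA of 13 libraries in 6 groups was sequenced, and groups were taken from the labels. The deposited values were whole-number counts of reads per gene, and the column for both strands together was used. STAR, DESeq2 1.22.2 and build mm10 are named per the submitters' processing notes, and no annotation behind the counts is given in the sources used here. The 4 summary lines per table were left out. Counts were filtered by group with filterByExpr (minimum count 10), scaled by TMM and compared with the quasi-likelihood test of edgeR 4.0.16 in R 4.3.3, with Benjamini-Hochberg adjustment over all genes of a fit and a threshold of 0.05. The organoid fit held 14208 genes (6 libraries, biological coefficient of variation 0.217), the ISC fit 14577 (7 libraries, 0.402) and the fit for the interaction and the WT comparison 15208 (13 libraries, 0.341). CPM values were counts divided by library size times the TMM factor, with factors taken over all 13 libraries. In Sec-Cre ileal ISC replicate 1, 321 Axin2 counts among 11524335 gene counts thus stood at 79.0 CPM. In WT ileal ISC replicate 1, 5326 among 15573041 stood at 329.9 CPM.

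Of the 39 genes 38 passed the filter in each fit, and Cyp4a10 did not. Members and gene lists were chosen with earlier results of these data known. Per-library values are given for the receptors, for Cpt1a, Pdk4, Plin2 and Angptl4, for the 2 members per role with the smallest adjusted p in Sec-Cre organoids, and for members called in the ISC, interaction or opposite comparisons. Members with neither a call nor a place among these have organoid values only. Genes outside the members were named at most 3 per list by smallest adjusted p, leaving out Acot12, which had no count in a group, and some genes are not reported here. Gene models were matched by symbol to GENCODE vM21 (22750 of 24054 genes, all members), and exon lengths and shared 31-base words came from it. Promoter windows came from RefSeq on GRCm38.p6.

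Alternatives were DESeq2 1.42.0, its size factors in edgeR, unscaled totals, no filter, a replicate block, voom with quality weights (limma 3.58.1), other sample sets, the sequenced-strand column for duodenal libraries and leaving out each library. The edgeR steps were tested on simulated data: in Sec-Cre against WT organoids 49 of 100 genes changed by a log2 value of 1 and 94 of 100 changed by 2 were recovered, and in Sec-Cre against WT ileal ISCs 0 and 14 of 100. Unchanged genes gave 12 false calls in the first and 3 in the second. Fewer genes were changed than were called in the data, so recovery in the data can differ. Labels do not say whether replicates are separate animals or cultures. The spread behind each p-value is that between these samples and may be technical. Within groups, chi-square values of 18.9 to 1660 per degree of freedom exceeded sampling noise, so no library was a copy of another. A ratio to a group without counts used 3 counts over that group and the observed counts of the other group. Such ratios cover neither the counting error of the other group nor the spread between libraries.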

Additional observations from a re-analysis of the deposited data

Results flagged for a closer look

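For 28 members the Sec-Cre minus WT difference differed between organoids and ileal ISCs by the interaction term of the edgeR quasi-likelihood fit. The values are log2 differences, organoid effect minus ISC effect, and each is below 0. Among receptors and coactivators they were -6.41 for Ppara (adjusted p 4.35e-05), -2.19 for Pparg (adjusted p 0.0378) and -5.43 for Ppargc1a (adjusted p 0.00135). Among activation and carnitine shuttle genes they were -2.71 for Acsl5 (adjusted p 0.000661), -2.59 for Acot1 (adjusted p 0.00903), -2.20 for Slc25a20 (adjusted p 0.00488) and -1.94 for Crot (adjusted p 0.000656). For the acyl-CoA dehydrogenases they were -1.68 for Acadm (adjusted p 0.00191) and -2.35 for Acadvl (adjusted p 0.00421). The later mitochondrial steps had -3.07 for Hadh (adjusted p 4.7e-05), -0.86 for Hadha (adjusted p 0.0368), -1.07 for Hadhb (adjusted p 0.0233) and -3.37 for Acaa2 (adjusted p 0.000338). The auxiliary enzymes had -1.58 for Eci1 (adjusted p 0.0203), -1.16 for Eci2 (adjusted p 0.0129), -2.15 for Decr1 (adjusted p 0.00168) and -1.62 for Decr2 (adjusted p 0.0281). The electron transfer system had -2.17 for Etfa (adjusted p 0.000656), -2.09 for Etfb (adjusted p 0.00267) and -1.61 for Etfdh (adjusted p 0.00482). Peroxisomal genes had -2.39 for Acaa1a (adjusted p 0.014), -9.37 for Acaa1b (adjusted p 0.00486), -4.10 for Ehhadh (adjusted p 7.35e-05) and -1.26 for Hsd17b4 (adjusted p 0.0109), and -1.47 for Scp2 (adjusted p 0.00432), -2.48 for Cat (adjusted p 0.000873) and -4.71 for Pex11a (adjusted p 0.000576). Angptl4 had -6.03 (adjusted p 0.00209). In the same comparison 16 of 16 enterocyte markers were lower, and their part in these values was not tested.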

How the results depend on the processing

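The recomputed member results were every tested member in both organoid comparisons with WT, called members elsewhere, 8 chosen members in the ISC comparisons with WT and the few other uncalled members given a value, a set narrowed after sign changes among uncalled members had been seen. They gave 2146 alternative values: 1837 kept direction and call, 243 lost the call, 47 gained it and 19 changed sign. Over all tested members in the 8 comparisons, 146 of 3799 alternative values had the opposite sign, 145 of them in members not called. For Axin2 and the genes outside the members that the naming rule picked, 784 alternative values kept the call and 76 lost it. The causes were not tested.

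With unscaled library totals, the median log2 fold change of members was -0.79 in Sec-Cre and -0.79 in ISC-Cre against WT organoids (0.21 and 0.24 over all genes), 0.30 in Sec-Cre and -0.30 in duodenal against WT ileal ISCs, -0.57 in duodenal against Sec-Cre ISCs and -1.0 for the interaction. Members called higher and lower were then 3 and 1 in Sec-Cre against WT ileal ISCs, 1 and 2 in duodenal against WT ileal ISCs, 1 and 8 in duodenal against Sec-Cre ISCs and 1 and 8 for the interaction, and 2 were lower in WT organoids against WT ileal ISCs. Over all genes these counts were 299 and 1066, 1000 and 555, 4112 and 967, 2862 and 715, and 150 lower, in the same order. Signs changed for Decr2 (0.0457) and Pex19 (0.0656) in Sec-Cre organoids, for Ppard (0.15), Scp2 (0.10) and Pex19 (0.0861) in ISC-Cre organoids and for Hadha (0.045) in the interaction. DESeq2 gave 22 higher and 2 lower in Sec-Cre against WT ileal ISCs, 6 higher in duodenal against WT, 1 higher in duodenal against Sec-Cre, and 5 higher and 3 lower between the WT groups. Over all genes it gave 2211 higher and 1579 lower, 2203 higher, 3474 higher, and 571 higher and 617 lower in the same order. All 13 libraries in 1 fit gave 23 and 2 in Sec-Cre ISCs, 6 higher in duodenal against WT, 1 higher in duodenal against Sec-Cre and a median of -0.96 in ISC-Cre organoids. Over all 15208 genes that fit gave 2236 and 2055 in Sec-Cre ISCs, 2385 higher in duodenal against WT and 3972 higher against Sec-Cre. The 2 groups alone gave 7 higher in Sec-Cre ISCs, 6 higher in duodenal ISCs and a median of -0.98 in ISC-Cre organoids. Over all genes 853 of 12976 were then higher in Sec-Cre ISCs and 2321 of 14289 in duodenal ISCs. Without a filter 1 member was lower in Sec-Cre ISCs, and 1 higher and 3 lower between the WT groups. Over all genes 1061 of 18899 were then lower in Sec-Cre ISCs, and 385 higher and 373 lower of 19479 between the WT groups. With voom 1 was lower in Sec-Cre ISCs, 8 higher and 18 lower in duodenal against WT, 1 higher against Sec-Cre and in the interaction, and 5 higher and 2 lower between the WT groups, and Pparg in Sec-Cre ISCs was 0.16. Over all 14577 genes voom called 926 lower in Sec-Cre ISCs, 3987 higher and 3388 lower in duodenal against WT and 2363 higher against Sec-Cre. Of 15208 genes it called 1810 higher in the interaction and 720 higher and 689 lower between the WT groups.

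Deviations of same-numbered samples from their group means were weakly correlated (-0.0976 to 0.0731). Between the ileal groups the value was 0.0731 for same-numbered and -0.0731 for different-numbered samples. Organoid groups gave such mirrored values too, because the deviations within a pair of replicates are equal and opposite. So few separate values cannot decide whether the numbers pair the samples. With the replicate block 25 members were lower in each organoid comparison with WT, 18 were higher in Sec-Cre ISCs, 4 were lower in duodenal against WT ISCs, and 0 were lower between the WT groups. Over all genes the block gave 2006 lower in Sec-Cre and 2308 lower in ISC-Cre organoids. It gave 1374 higher in Sec-Cre ISCs, 815 lower in duodenal against WT ISCs and 292 lower between the WT groups.

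Leaving out 1 library at a time gave 0 to 17 members higher and 0 to 2 lower in Sec-Cre against WT ileal ISCs, 1 to 4 higher and 0 to 5 lower in duodenal against WT, 0 to 2 higher in duodenal against Sec-Cre (median -1.60 to -1.08), 0 to 1 higher in the interaction (median -2.12 to -1.66) and 0 to 1 lower between the WT groups (median 0.0703 to 0.20). Calls over all genes also changed with the library left out, so these ranges of member calls are no result about the members alone. The median in ISC-Cre organoids ran from -1.08 to -0.98. Ranges that crossed 0 were -0.34 to 0.14 for Decr2, -0.0403 to 0.31 for Scp2 and -0.24 to 0.0592 for Pex19 in Sec-Cre organoids, and -0.20 to 0.0822 for Ppard, -0.0701 to 0.23 for Acadl, -0.19 to 0.29 for Decr2 and -0.27 to 0.0327 for Pex19 in ISC-Cre organoids. In Sec-Cre ISCs they were -1.22 to 0.48 for Pparg and -0.19 to 1.43 for Plin2, and in the interaction -0.56 to 1.87 for Pdk4. With a group reduced to 1 library, that library was taken to vary like the others. In simulated ISC data 14 of 100 genes changed by a log2 value of 2 were recovered. Far fewer genes were changed there than the 2417 called in Sec-Cre against WT ileal ISCs, so recovery in the data can differ. An uncalled member there is not shown to be unchanged.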
